A study of Mus musculus with 6 samples.

Results

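The genes described here are Timp1, Timp2, Timp3 and Timp4, which encode the tissue inhibitors of metalloproteinases, and Reck, which encodes a membrane-anchored inhibitor of the same enzymes. They are 5 of the 54532 genes in the count table and were found by their gene symbols. The family was chosen by the difference of Timp4 between the genotypes in these same hearts, so the Timp4 contrast is described without a test. All 5 passed the filter on low counts that left 14866 genes for testing. Whole-heart RNA was sequenced from male C57BL/6 mice aged 3 months, with 3 hearts per genotype. The resistant hearts (α1r/rα2s/s, mice 368, 369 and 370) carry the rodent Na/K-ATPase α1, which binds cardiotonic steroids weakly. The sensitive hearts (α1s/sα2s/s, mice 379, 380 and 381) carry a knocked-in α1 with high affinity for these steroids in every tissue. Both groups carry the sensitive α2 allele, so the labelled difference is at α1, and the comparison asks what a cardiotonic steroid-sensitive α1 does to the cardiac transcriptome.

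Matrix metalloproteinases (MMPs) are zinc enzymes that cut collagens and other proteins around cells. A TIMP blocks them by lying in the active site with its first residue, a cysteine that holds the zinc, and the related ADAM and ADAMTS enzymes are blocked by some TIMPs as well. In the heart this balance is known for its part in matrix turnover after injury and under pressure load. Reck has another structure, is held on the outer face of the plasma membrane by a lipid anchor, and is also a receptor component for Wnt7 proteins.

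The opening of each mature TIMP is shown because it is the part that enters the protease. Each line gives 60 bases of coding sequence from GENCODE M21 transcripts on GRCm38/mm10, 5′ to 3′, starting at the first cysteine codon of the mature protein, with the cysteine codons in capitals.
Timp1: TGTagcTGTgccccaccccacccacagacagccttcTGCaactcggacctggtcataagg
Timp2: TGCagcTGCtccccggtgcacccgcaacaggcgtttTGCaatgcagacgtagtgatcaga
Timp3: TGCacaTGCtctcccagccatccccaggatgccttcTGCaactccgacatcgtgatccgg
Timp4: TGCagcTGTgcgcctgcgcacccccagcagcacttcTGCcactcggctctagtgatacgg
All 4 stretches held 3 cysteine codons at the same places, and each coding sequence held 12 from this point on. Whole coding sequences were 53.3% (Timp1 and Timp3) to 63.1% (Timp3 and Timp4) identical. The longest run of bases that any pair of the 5 genes' transcripts shared was 18, between Timp3 and Timp4, so no member was a near copy of another.

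The 5 genes lie on 5 chromosomes (GRCm38, GENCODE M21). Timp1 (ENSMUSG00000001131) is at chrX:20870166-20874735 on the plus strand, and its coding exons lie in intron 5 of Syn1, a synapsin gene read from the other strand. Timp3 (ENSMUSG00000020044, chr10:86300372-86349506, plus) lies in the same way in intron 6 of Syn3, and Timp4 (ENSMUSG00000030317, chr6:115241892-115252205, minus) in intron 5 of Syn2. Timp2 (ENSMUSG00000017466, chr11:118301069-118355740, minus) and Reck (ENSMUSG00000028476, chr4:43875530-43944806, plus) have no synapsin host. The 4 TIMP proteins have 205 to 224 residues, against 971 for Reck.

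The promoter window of Timp4 is printed because it held the fewest CG dinucleotides of the 5, which are in capitals below. The window (RefSeq, GRCm38.p6) is chr6:115252156-115252455 on the minus strand, 5′ to 3′, from 250 bases before to 50 bases after the annotated start.
Timp4: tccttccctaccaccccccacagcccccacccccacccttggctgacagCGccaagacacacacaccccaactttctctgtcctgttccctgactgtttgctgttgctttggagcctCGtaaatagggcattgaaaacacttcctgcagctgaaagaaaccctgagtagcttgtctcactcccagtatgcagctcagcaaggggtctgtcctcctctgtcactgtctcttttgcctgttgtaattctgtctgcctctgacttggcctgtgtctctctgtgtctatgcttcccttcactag
It held 2 CG dinucleotides, and 14.1% of the 32851 mouse windows held fewer. The windows of Timp2, Timp3 and Reck held 25, 24 and 23, that of Timp1 held 8, and the median window held 7. The GC box GGGCGG, counted on both strands, was found 3 times for Reck, 2 times for Timp3 and 1 time each for Timp1 and Timp2. It was not in the Timp4 window and was in 35.7% of all windows. TATAAA (in 13.6% of all windows) and AGGTCA (in 16.3%) were in none of the 5.

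Each heart gave 19309312 to 20470065 counts on genes, which covered 21234 to 22515 genes with at least 1 count. All 10 cardiomyocyte marker genes listed were well measured, with a sum of 52231.8 to 64424.2 CPM (counts divided by library size and scaled to 1e6). Mitochondrially encoded genes took 23.4% to 24.4% of counts in resistant and 25.0% to 26.0% in sensitive hearts.

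Timp4 is the TIMP known for high expression in heart. Its count was 438, 466 and 512 in the resistant hearts and 713, 1225 and 1020 in the sensitive hearts. Scaled to library size by TMM, this gave 20.9, 22.3 and 25.7 CPM against 35.4, 64.4 and 52.9 CPM. Every sensitive heart lay above every resistant heart, and mouse 379 lay nearest to the resistant hearts. The mean was 23.0 ± 2.48 CPM (SD, n = 3) in resistant and 50.9 ± 14.6 CPM (SD, n = 3) in sensitive hearts, which is 2.22-fold higher. The fitted log2 fold change of sensitive over resistant hearts was 1.15, with a 95% interval of 0.80 to 1.50. Timp4 was 1 of the 214 genes called at an adjusted p under 0.05 by edgeR (1.44% of genes tested), the call on which the family was chosen.

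Timp3 encodes the TIMP that stays bound to the matrix and that inhibits ADAM17 and several ADAMTS enzymes. Its count was 2152, 2297 and 2212 in resistant and 2520, 2405 and 2294 in sensitive hearts, or 103, 110 and 111 CPM against 125, 127 and 119 CPM. The groups did not overlap, with the sensitive hearts above, and the hearts of each group lay close together. The means were 108 ± 4.49 and 124 ± 4.01 CPM (SD, n = 3 each), a log2 fold change of 0.20 (SE 0.068, 95% interval 0.05 to 0.34). The difference did not pass the test (edgeR quasi-likelihood, adjusted p = 0.184), and 10% of all tested genes were likewise higher in sensitive hearts without overlap.

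Timp2 encodes an inhibitor that also takes part in the activation of pro-MMP2 by the membrane protease MMP14. It had 2285, 2857 and 1937 counts in resistant hearts and 2042, 1933 and 1709 in sensitive hearts. In CPM this was 109, 136 and 97.3 against 101, 102 and 88.6, so the groups overlapped, and mouse 369 alone stood well above the rest. The means were 114 ± 20.1 and 97.2 ± 7.45 CPM (SD, n = 3 each). The log2 fold change of -0.23 (95% interval -0.46 to -0.01) did not pass the test (edgeR, adjusted p = 0.323), and without mouse 369 it was -0.08.

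Timp1 encodes the TIMP best known for induction by injury and cytokines. It was rare in these hearts, with 24, 35 and 28 counts in resistant and 26, 23 and 16 in sensitive hearts. The groups overlapped at 1.41 ± 0.263 and 1.11 ± 0.246 CPM (SD, n = 3 each). Its log2 fold change was -0.34 (edgeR, adjusted p = 0.724), and the 95% interval from -1.14 to 0.45 held both a fall by more than 1 on the log2 scale and a rise. A change in Timp1 was therefore not detectable at this depth.

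Reck had 221, 234 and 183 counts in resistant and 198, 191 and 148 counts in sensitive hearts. These groups overlapped too, at 10.3 ± 1.01 and 9.18 ± 1.31 CPM (SD, n = 3 each). The log2 fold change was -0.17 (95% interval -0.49 to 0.15, edgeR adjusted p = 0.659). Across the family 1 of 5 members was called (1.44% of all genes tested), and this was Timp4, whose call chose the family. Timp4 and Timp3 were higher in sensitive hearts without overlap (10% of all genes tested), no member was lower without overlap (9.98%), and 2 log2 fold changes were above and 3 below 0. The median log2 fold change was -0.17, beside -0.01 over all genes tested.

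**Figure D1:**
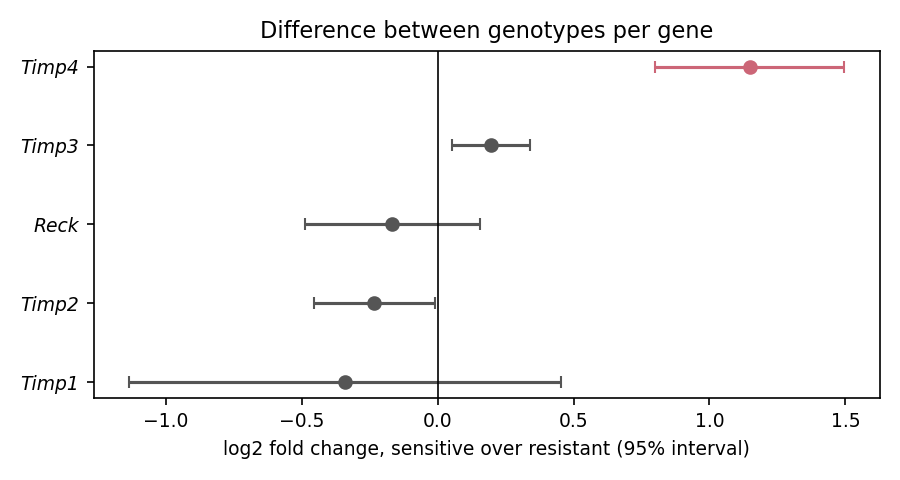
The log2 fold change of sensitive over resistant hearts (x axis) is shown for each gene as a point with its 95% interval from edgeR, with Timp4, the call that chose the family, in red. The Timp4 interval runs from 0.80 to 1.50, those of Timp3 and Timp2 lie close to 0 on either side, and those of Reck and Timp1 cross 0.

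To compare genes with one another, CPM were divided by the length of each gene's merged exons in kilobases, and this value is called the level. In both genotypes the order of mean levels was Timp2, Timp3, Timp4, Reck and Timp1, and each heart gave that order. No neighbours in the order overlapped within a genotype.

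Timp2 was highest at 29.3 ± 5.16 in resistant and 25.0 ± 1.91 in sensitive hearts (CPM per kilobase, SD, n = 3). The level of Timp3 followed at 13.2 ± 0.552 and 15.2 ± 0.492. Timp4 stood at 3.90 ± 0.421 in resistant and 8.64 ± 2.48 in sensitive hearts. Its place between Timp3 and Reck was the same in both genotypes while its distance to them was not. Timp3 was 3.40 times Timp4 in resistant and 1.76 times in sensitive hearts, and Timp4 was 1.81 and 4.49 times Reck. The mean level of Reck was 2.16 ± 0.212 in resistant and 1.92 ± 0.274 in sensitive hearts, and that of Timp1 was 1.59 ± 0.296 and 1.25 ± 0.277.

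**Figure D2:**
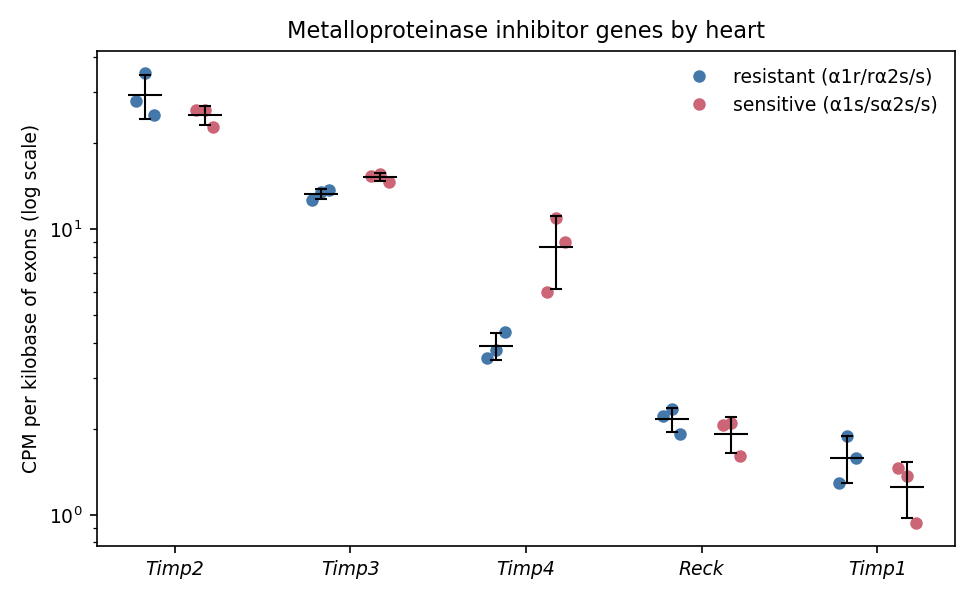
Level of each gene in CPM per kilobase of exons (y axis, log scale) in each heart, with the resistant hearts in blue and the sensitive hearts in red. Each point is 1 heart, and the bars give the mean and SD of 3 hearts. Timp2 and Timp3 lead in every heart, and Timp4 is the gene whose genotypes lie farthest apart.

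Of the summed level of the 5 genes, Timp4 took 7.44%, 6.68% and 9.39% in resistant hearts and 11.8%, 19.5% and 18.4% in sensitive hearts. The groups did not overlap, and the mean share was 7.84% ± 1.39 against 16.6% ± 4.16 (SD, n = 3 each), or 8.72 percentage points more. Timp2 took the largest share in every heart, at 58.2% ± 4.17 in resistant and 48.1% ± 2.63 in sensitive hearts. The share of Timp3 was 26.6% ± 2.75 and 29.3% ± 1.34, that of Reck was 4.30% ± 0.285 and 3.69% ± 0.381, and that of Timp1 was 3.15% ± 0.384 and 2.40% ± 0.473. Because shares sum to the whole, a larger Timp4 share lowers the others, and the levels above show each gene by itself.

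**Figure D3:**
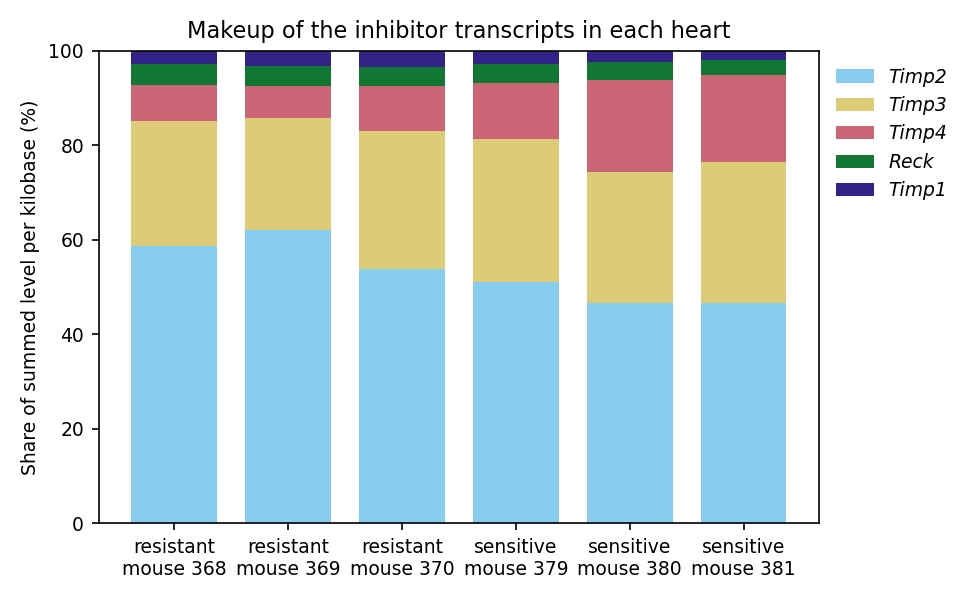
Each bar is 1 heart and divides the summed level of the 5 genes (CPM per kilobase) into percent shares on the y axis. Timp4, in red, takes 6.68% to 9.39% in resistant hearts and 11.8% to 19.5% in sensitive hearts, and Timp2 takes the largest share of every bar.

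The summed level of all 5 genes was 50.2 ± 5.47 in resistant and 51.9 ± 3.69 in sensitive hearts (CPM per kilobase, SD, n = 3 each), with overlap. Without Timp4, the summed level of the other 4 was 46.3 ± 5.63 and 43.3 ± 2.94. This difference of -3.03 was within the spread between hearts (exact permutation test, two-sided p = 0.6). Its direction rested on mouse 369, without which it was 0.175.

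The order of levels depended on the length used, which was examined after the data were seen. Timp4 has a long annotated last exon, and its coding transcripts are 5496 and 945 bases. If the reads came from the shorter one, the Timp4 level would be 24.3 in resistant and 53.9 in sensitive hearts (CPM per kilobase). With the other lengths unchanged, it would stand just under Timp2 (29.3) in resistant hearts and above all other members in sensitive hearts. Timp2 and Timp3 also have shorter coding transcripts (718 and 352 bases), so this order applies only if Timp4 alone is changed. With coding length in place of exon length, Timp2 and Timp3 were near each other in resistant hearts (173 and 170). Timp3 was then the higher in sensitive hearts (195, against 147 for Timp2). Fold changes between genotypes do not use the length.

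The genes also differed in how much hearts of 1 genotype varied. Timp4 had a coefficient of variation of 28.7% over the sensitive hearts, where counting error alone would give 3.18%, and 5.22% of the 12108 genes whose log2 CPM averaged 1 or more varied more. Over the resistant hearts its coefficient was 10.8%, and 36.0% of these genes varied more. Timp3 was steady in both genotypes, at 4.16% and 3.24%, beside medians of 8.30% and 8.68% over these genes. Timp2 varied by 17.6% over the resistant hearts, mostly through mouse 369, and by 7.66% over the sensitive hearts. For Timp1 the spread of 18.7% and 22.2% was close to the 18.6% and 21.5% that counting alone would give.

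Timp1, Timp2 and Reck shared the ends of their order of hearts. In CPM each was highest in mouse 369 and lowest in mouse 381, whereas Timp3 and Timp4 were both highest in mouse 380 and lowest in mouse 368. Timp2 and Reck ranked all 6 hearts in the same order, and so did Timp3 and Timp4 for the resistant hearts. TMM factors were highest in mouse 369 and lowest in mouse 381 as well, at 1.06 and 0.945, and their part in this order was not tested.

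The genes whose log2 CPM followed each member most closely over the 6 hearts are given as a description. Among 12107 genes, those most like Timp4 were D030056L22Rik (Pearson's r = 0.999), 8030462N17Rik (0.998), Sfr1 (0.996), Fam104a (0.996) and Ccnl2 (0.992), the last a cyclin of RNA splicing. Those most opposite were the Notch target Hes1 (-0.994), the nuclear receptor corepressor Nrip1 (-0.993) and Bcas2 (-0.992). None of these 8 passed the test between genotypes, and their log2 fold changes ran from -0.49 (Hes1) to 0.31 (Ccnl2). For Timp3 the nearest were Dusp28 (0.998), Erc1 (0.993) and Phyhd1 (0.988), and for Timp2 they were Fam149a (0.997), Rab6a (0.994) and Lsm8 (0.992). Reck was nearest to Sparcl1 (0.998), Apba1 (0.994) and the secreted Wnt binder Sfrp1 (0.994), and Timp1 to Carhsp1 (0.995), Dse (0.992) and Egln3 (0.991). Over 6 hearts that share 2 genotypes and their library scaling, values this high were the extremes of many genes.

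The host genes were examined next, since the counting is not known to have used strand, and reads of opposite strands then cannot be told apart. Syn2 encodes synapsin 2, a synaptic vesicle protein. Its exons overlap those of Timp4 by 90 bases, in the last Timp4 exon after the stop codon. Syn2 had 44, 76 and 55 counts in resistant and 85, 91 and 65 in sensitive hearts, or 2.83 ± 0.767 and 4.13 ± 0.713 CPM (SD, n = 3 each). The groups overlapped and the log2 fold change of 0.54 did not pass the test (edgeR, adjusted p = 0.358). All Syn2 counts together were 416, fewer than those of Timp4 in any single heart.

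**Figure D4:**
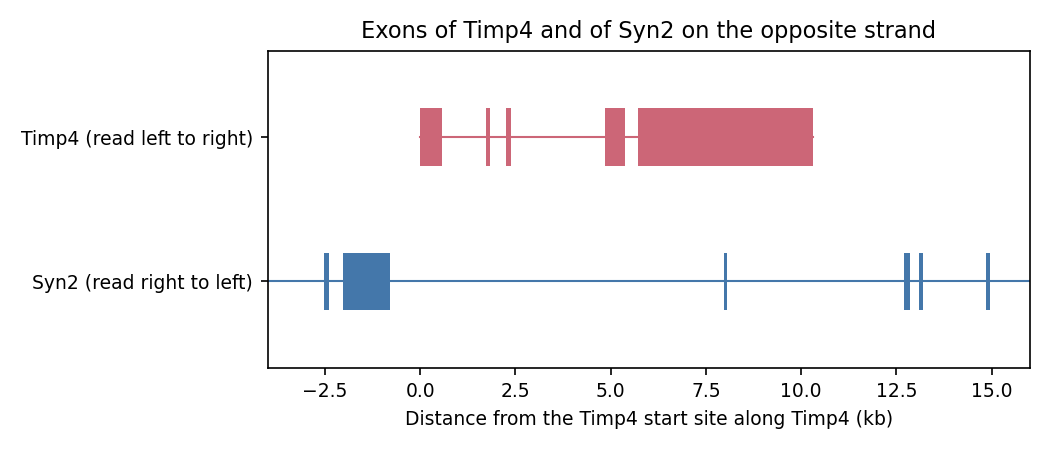
Merged exons (boxes) and introns (lines) of Timp4 and of Syn2 on the opposite strand, by distance in kilobases from the Timp4 start site. The Timp4 coding exons lie within 1 intron of the Syn2 coding transcript, and the only shared stretch is the short Syn2 exon inside the long last Timp4 exon.

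Syn3 exons overlap 1733 bases of Timp3, none of them coding for Timp3. Syn3 had 89 counts over the 6 hearts and a log2 fold change of 0.97 (edgeR, adjusted p = 0.382). Syn1 had 45 counts in all, too few to test, and none of its exons overlaps those of Timp1. Cep295nl, which lies across Timp2 on the same strand, had 47. The counts of overlapping genes were thus small beside those of Timp2, Timp3 and Timp4. How reads in the shared bases were assigned is not known, so these counts do not show the effect of the overlap on Timp3 or Timp4.

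Of the nearest neighbours, Pparg, the fat cell nuclear receptor gene that lies 108746 bases from Timp4, was 9.96 ± 1.27 CPM in resistant and 13.1 ± 1.42 CPM in sensitive hearts (SD, n = 3 each). The groups did not overlap, and the log2 fold change of 0.39 did not pass the test (edgeR, adjusted p = 0.204). Next to Timp2, the secreted glycoprotein gene Lgals3bp differed by -0.34 on the log2 scale (edgeR, adjusted p = 0.336, and -0.09 without mouse 369) and the ubiquitin protease gene Usp36 by -0.15 (adjusted p = 0.536). Glipr2, beside Reck, differed by -0.22 (adjusted p = 0.699). The other neighbours (Mir5617, Gm15029, Gm15990, Gm6729, Gm18325 and Olfr155) had 0 to 5 counts over all hearts. Gm17482, whose span overlaps Timp4 from the opposite strand, and Gm27265, which lies within Reck, had 0 counts. Whether their exons overlap those of Timp4 and Reck was not examined.

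The enzymes that the inhibitors act on, their activators and their partners were read as 6 lists with 82 genes reported here, of which 65 were tested. Of these 1 was called, Mmp15, which is about the share called over all genes tested (1.44%). The median log2 fold change was -0.03. Mmp15 encodes a membrane-type MMP. It had 2299, 2478 and 2465 counts in resistant and 1899, 1798 and 1577 in sensitive hearts, with no overlap. Its level fell from 21.7 ± 1.32 to 16.7 ± 1.35 CPM per kilobase (SD, n = 3 each), a log2 fold change of -0.38 (SE 0.078, edgeR adjusted p = 0.0279). The call was lost when any 1 of the 6 hearts was left out (adjusted p from 0.0512 to 0.0935).

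Of 20 Mmp genes 12 were tested, 5 higher and 7 lower, and Mmp15 was the single call. Mmp7, Mmp10 and Mmp20 had no count in any heart. Mmp2, the gelatinase that Timp2 binds in its proenzyme form, had nearly equal levels of 19.3 ± 3.21 and 19.0 ± 1.51 CPM per kilobase, with a log2 fold change of -0.03 (95% interval -0.25 to 0.20, edgeR adjusted p = 0.940). Mmp14, its activator, was lower at 3.89 ± 0.971 against 3.00 ± 0.418, without passing the test (log2 fold change -0.37, adjusted p = 0.276, and -0.14 without mouse 369). The summed Mmp level was 51.9, 61.5 and 52.1 in resistant and 51.2, 51.1 and 44.8 in sensitive hearts. These groups did not overlap but lay close, with a difference of -6.13 (p = 0.1 in a two-sided exact permutation test). With 3 against 3 hearts this test can give no smaller p. Most of the difference lay in Mmp15, whose mean level was 21.7 in resistant and 16.7 in sensitive hearts. The difference was -2.97 without mouse 369. With mitochondrial and globin genes left out of library totals that were not scaled by TMM, it was -10.7. These smaller totals raise every level, so -10.7 is not on the scale of -6.13.

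Set against the Mmp sum, the summed level of Timp1, Timp2, Timp3 and Reck gave a ratio of 0.839 ± 0.0266 in resistant and 0.883 ± 0.00672 in sensitive hearts (SD, n = 3 each). The ratios did not overlap (p = 0.1 in the same exact test). With Timp4 included the ratio was 0.919, 0.919 and 0.892 in resistant and 0.994, 1.10 and 1.09 in sensitive hearts, which carries the selected gene and has no test. These are ratios of RNA and not of inhibitor to active enzyme.

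No ADAM gene (10 of 11 tested) and no ADAMTS gene (16 of 19 tested) was called by edgeR. Of the ADAM genes 5 were higher and 5 lower in sensitive hearts, and of the ADAMTS genes 4 were higher and 12 lower. On the log2 scale the Timp3 target Adam17 differed by -0.13 (adjusted p = 0.501), Adam10 by -0.14 (adjusted p = 0.461) and Adam9 by 0.06 (adjusted p = 0.722). The aggrecan- and versican-cutting Adamts1 and Adamts5 had -0.05 and 0.05, and Adamts10, a microfibril-associated member, had 0.11 (edgeR adjusted p = 0.882, 0.877 and 0.667).

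Of the 19 activators and other inhibitors reported, 16 were tested, 8 higher and 8 lower, and none was called by edgeR. On the log2 scale Bsg, the MMP inducer CD147, differed by 0.09 (edgeR adjusted p = 0.586). The cysteine protease inhibitor Cst3 differed by 0.12 (adjusted p = 0.465) and the proprotein convertase Pcsk6 by -0.26 (adjusted p = 0.271).

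All 8 genes of TIMP-binding partners were tested and none was called by edgeR. Kdr, the VEGF receptor that Timp3 binds, had 6226, 6367 and 5012 counts in resistant and 4715, 4149 and 2882 in sensitive hearts. It did not overlap between genotypes, and its log2 fold change of -0.50 did not pass the test (adjusted p = 0.0694). Kdr passed in 2 of 13 alternatives. Without mouse 379 its log2 fold change was -0.63 (edgeR adjusted p = 0.0449). With no filter on low counts, where 618 genes were called, its edgeR adjusted p was 3.35e-08. The other 11 did not pass, among them DESeq2 (adjusted p = 0.181) and edgeR's robust prior (adjusted p = 0.31). Without mouse 381 the log2 fold change was -0.33. Of all tested genes, 9.98% were lower in sensitive hearts without overlap. Cd63, the tetraspanin that Timp1 binds, was higher without overlap at 0.19 (adjusted p = 0.198), and the integrin Itgb1 had -0.01 (adjusted p = 0.955). For the Wnt7 receptor complex of Reck, 5 of 7 genes were tested and none was called by edgeR. Ctnnb1, Fzd4 and Lrp6 differed by -0.03, -0.01 and 0.01 on the log2 scale, with adjusted p of 0.882, 0.974 and 0.980.

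**Figure D5:**
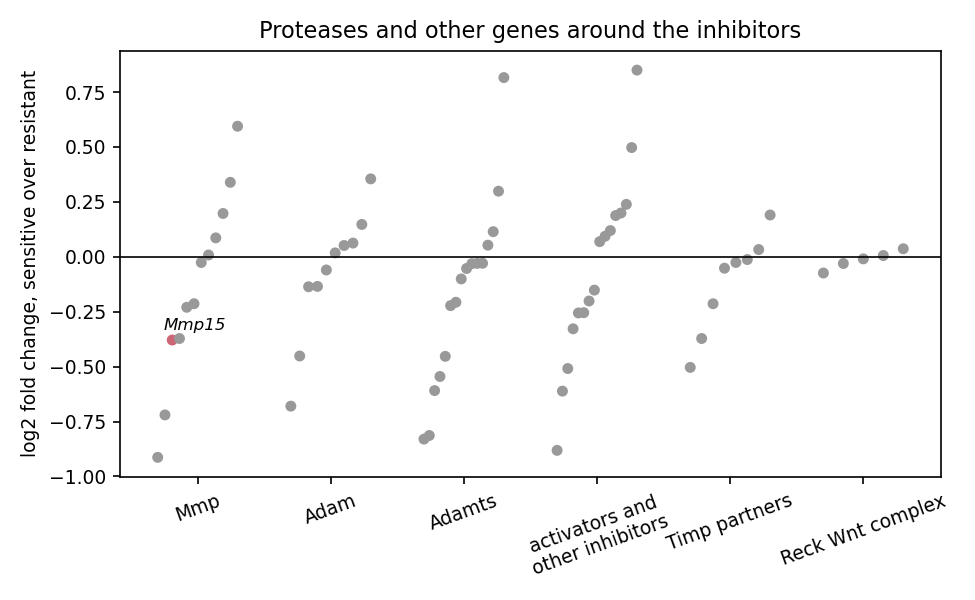
The log2 fold change of sensitive over resistant hearts (y axis) is plotted for the 65 tested genes of the 6 lists of proteases, activators and partners, sorted by value within each list (Mmp2 and Mmp14 are in 2 lists), with the gene called by edgeR in red. Mmp15 at -0.38 is the called gene, and genes farther from 0 are grey because they did not pass the test.

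In whole-heart RNA, fewer cells of a type and less RNA per cell cannot be told apart, so marker genes of the cell types that could carry these transcripts were read beside the family. Of 10 cardiomyocyte markers 8 were higher and 2 lower in sensitive hearts, and none was called by edgeR. The cardiomyocyte sums overlapped, at 56316, 52232 and 64424 CPM in resistant and 59233, 57832 and 62737 CPM in sensitive hearts. The part of cardiomyocytes in the Timp4 difference was not tested. Of 8 capillary endothelial markers 7 were higher in sensitive hearts and 2 were called by edgeR, beside 1.44% of all genes tested. These were Car4, a carbonic anhydrase (log2 fold change 0.99, edgeR adjusted p = 0.000128), and Fabp4, a fatty acid binding protein (0.39, adjusted p = 0.0358). The remaining marker, the apelin receptor gene Aplnr, named after its values were seen, had -0.49 without passing the test (adjusted p = 0.274). Their sum was 3000, 3094 and 2775 CPM in resistant and 3478, 3394 and 3530 CPM in sensitive hearts, so the genotypes differed in the same direction as in Timp4. Within the genotypes mice 370 and 380 had the lowest sums and the highest Timp4 of their groups. Most of the sum was Cd36, named after its values were seen (means of 2063 and 2388 CPM), so the sum is not an even reading of the 8 markers. General endothelial markers did not rise with the capillary markers. Of these 11 general markers 3 were higher, 8 lower and none called, with sums of 1334 to 1541 and 1169 to 1438 CPM. Their part in the Timp4 difference was not tested.

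The 7 tested fat cell markers of 10 were all higher in sensitive hearts, none was called, and Ucp1 had no count. Their sum was 25.4 to 29.7 CPM in resistant hearts and 44.2, 24.5 and 29.3 CPM in mice 379, 380 and 381. Cidea, named after its values were seen, made the largest part of the mean sum (means of 19.2 and 20.3 CPM). Its log2 fold change was 0.08 (edgeR, adjusted p = 0.802). The heart with the highest fat cell sum, mouse 379, had the lowest Timp4 of the sensitive hearts, and without it the Timp4 log2 fold change was 1.36. The part of fat cells in the Timp4 difference was not tested.

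Fibroblast marker sums overlapped between genotypes, at 2177 to 2503 and 2184 to 2546 CPM, with 4 of 10 higher and none called. Of the 10, 3 were lower without overlap (9.98% of all genes tested) and 0 were higher without overlap. The 3, named after their values were seen, were Col1a1, Col3a1 and Lum. Their log2 fold changes were -0.41, -0.49 and -0.26 (edgeR adjusted p = 0.0743, 0.0542 and 0.155). Mural markers were lower in 9 of 9 and macrophage markers in 8 of 8, none called, with sums of 1419 to 1482 and 1252 to 1416 CPM for mural cells and 241 to 373 and 200 to 256 CPM for macrophages. Macrophage and general endothelial sums, like Timp1, Timp2 and Reck, were highest in mouse 369 and lowest in mouse 381, and their part in those genes' order was not tested. Of 8 neuronal markers 2 were tested, Snap25 and Th had no count, and their sums of 5.43 to 6.69 and 4.25 to 7.25 CPM overlapped. The 2 tested of 6 mesothelial markers were lower, with sums of 5.78 to 9.84 and 4.93 to 8.19 CPM. All 5 erythroid markers were higher and none was called, with sums of 954, 1272 and 536 CPM in resistant and 796, 3187 and 401 CPM in sensitive hearts. Mouse 380 stood far above the others in this sum and also had the highest Timp4, and without it the Timp4 log2 fold change was 0.95. The part of blood in the Timp4 difference was not tested.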

How the data were processed

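Cardiac RNA was sequenced by a company, which also mapped and quantified the reads. The submitters' processing notes name fastp, STAR, featureCounts and the mm10 build, and whether counting used strand is not given in the sources used here. The authors deposited raw read counts per gene for each heart, with no normalization. The authors' own DESeq2 comparison, a table of fold changes and p-values, was not used. The genotype of each heart came from its label. The labels do not tie mice across genotypes. The paper's methods describe the controls as littermates, but the litter of each heart is not given.

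Counts were analysed in R 4.3.3 with edgeR 4.0.16: filterByExpr (minimum count 10, minimum total 15), TMM factors, the quasi-likelihood test and Benjamini-Hochberg adjustment over 14866 genes at 0.05. CPM used TMM-scaled library sizes, and log2 CPM a prior count of 2. Levels per kilobase used the gene lengths deposited by the authors, which equal merged GENCODE M21 exons for the 5 genes. Sums were compared by exact two-sided permutation tests, which cannot give a p under 0.1 here. With at most 1225 counts of Timp4 and 35 of Timp1 per heart, counting limits Timp1 most.

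The members and lists were chosen with earlier results of these data known, from general knowledge of the proteins. A gene of these lists is not reported here and is left out of their counts. The genes named were the 5 members, overlapping and nearest genes, from each list those called and the 3 with the highest level, and for likeness the 5 highest and 3 lowest correlations with Timp4 and the 3 highest with the others. Genes of the marker lists were named when called, when without counts, or where stated after their values were seen. Alternatives were DESeq2 1.42.0, RLE and upper-quartile factors, other count filters, a robust prior, leaving out mitochondrial and globin genes, and leaving out each heart. Transcript and coding lengths were added after seeing the data. On simulated counts for this comparison (14900 genes tested, 200 raised or lowered by 1 on the log2 scale) edgeR recovered 95% of the changed genes, and 5.47% of its calls were false. Every gene was simulated with the same biological variation of 11.1%, and the changed genes averaged above 1 CPM. The 95% therefore does not cover genes that vary more, such as Timp4 in sensitive hearts (28.7%).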

Additional observations from a re-analysis of the deposited data

How the results depend on the processing

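Over 13 alternatives none of Timp1, Timp2, Timp3 and Reck changed direction. The Timp4 contrast chose the family, so its values are a description: its log2 fold change ran from 0.95 to 1.36, and with edgeR's robust prior its adjusted p was 0.102, with 0 members called, 2 at an unadjusted p under 0.05, and 1 called by DESeq2. Leaving out 1 heart at a time, the log2 fold change ran from -0.33 to -0.08 for Timp2, 0.16 to 0.22 for Timp3, -0.24 to -0.05 for Reck and -0.47 to -0.17 for Timp1, none of them called. The number of genes called was 400 by DESeq2, 618 with no filter and 80 to 158 without 1 heart. The protease and partner lists had 4 calls with no filter and 2 each by DESeq2 and with edgeR's upper-quartile factors, 10 counts in every heart, the robust prior, or no mitochondrial and globin genes. Without 1 heart they had 0 to 1, where the 4 fits by edgeR with 0 calls had 10 to 17 genes at an unadjusted p under 0.05. Without 1 heart the log2 fold change ran through 0 for Mmp2 (-0.11 to 0.12), Adamts1 (-0.18 to 0.093), Adamts5 (-0.064 to 0.16), Adamts10 (-0.024 to 0.19), Itgb1 (-0.035 to 0.018), Fzd4 (-0.10 to 0.094) and Lrp6 (-0.036 to 0.043, and -0.0071 with upper-quartile factors). The difference in Timp4 share was 20.2 percentage points with the shorter Timp4 transcript and the other lengths unchanged. The difference in the summed level of the other 4 genes was -5.12 to 0.175 without 1 heart. The cause of these moves was not tested. Replicate numbers only follow the order of deposit, so no pairing was made. Depth limits Timp1 and the synapsin genes, whose counts were low.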
